A study of Mus musculus with 44 samples.

Results

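The cell cycle and mitosis genes comprised every probe set whose single platform gene symbol named a cyclin of the A, B, D or E type, a cyclin-dependent kinase (CDK), an E2F factor, a subunit of the MCM helicase, CDC6, CDC7, CDC20, CDC25 or CDC45, an Aurora or Polo-like kinase, a BUB or MAD2 checkpoint protein, Ki-67, topoisomerase II alpha, PCNA, ribonucleotide reductase or the spindle motor Kif11. The rule used names only. It found 66 probe sets for 49 genes, 0.531% of the 12422 probe sets tested, which cover 8251 distinct symbols in all. Of the 49 genes, 34 had 1 probe set, 13 had 2 and 2 had 3, and the Entrez identifiers of all 66 sets matched RefSeq genes of the same symbol. By role, 12 sets (8 genes) belonged to G1 cyclins and CDKs with CDC25A, 6 sets (4 genes) to E2F factors, 16 sets (13 genes) to replication licensing and DNA synthesis, 6 sets (5 genes) to mitotic cyclins, CDK1 and CDC25C, 11 sets (8 genes) to mitotic kinases, spindle and Ki-67, 7 sets (4 genes) to the spindle checkpoint with CDC20, and 8 sets (7 genes) to other CDKs.

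The study used CGR8 mouse embryonic stem (ES) cells (clone cgr8.8) and Affymetrix MG-U74Av2 arrays to search for genes regulated by Hex, a homeodomain transcription factor. Of 44 arrays, 40 fell into 11 groups. Wild-type cells had 4 arrays. Cells with Hex inserted at Rosa26, a locus active in most mouse tissues, had 4 arrays unrecombined and 4 recombined. Cells with the construct HexERTVP2 at the same locus came as 2 clones, each unrecombined or recombined and each with or without 4-OHT (4-hydroxytamoxifen, an oestrogen receptor ligand). Clone 1 had 5 unrecombined arrays without 4-OHT and 3 with it, and 4 recombined arrays without it and 4 with it. Clone 2 had 3 arrays in each of those states. All 11 groups share the CGR8 background, and every group but the wild type carries an insertion at Rosa26. What recombination switches, the dose and time of 4-OHT, and whether the arrays of 1 group stand for separate cultures are not given in the sources used here, so the p-values measure the spread between arrays, which may be technical.

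The cell cycle is driven by CDKs that act only with a cyclin partner. D-type cyclins with CDK4 and cyclin E with CDK2 release E2F factors from the retinoblastoma protein, E2F factors raise genes for replication, and cyclin A, cyclin B and CDK1 then carry the cell through mitosis, where the spindle checkpoint holds the anaphase-promoting complex back until chromosomes are attached. ES cells divide fast, with a short G1 phase, and mouse ES cells are known for high cyclin E and CDK2 activity through the whole cycle.

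Promoter sequence was available in the RefSeq table (GRCm38.p6) for 40 of the 49 genes, from 250 bases before to 50 bases after each start. On either strand 3 kinds of letters were searched, each separately, so that matches may share bases: the E2F letters TTTGGCGC, TTTCCCGC, TTTCGCGC and TTTGCCGC; the letters TTTGAA or TTCGAA of the cell cycle homology region (CHR), through which mitotic genes are known to be repressed outside G2 and mitosis; and CCAAT, to which NF-Y binds. The E2F letters were found in 22.5% of the 40 genes and in 3.29% of 17492 protein-coding genes. The CHR letters stood in 42.5% against 20.2%, and CCAAT in 70% against 42.3%. Pairs of CCAAT that lie 25 to 40 bases apart, a spacing chosen after the sequences had been seen, stood in 22.5% against 4.65%, and such a pair with a CHR in 17.5% against 0.869%. A match describes the letters and is no evidence of binding. The 250 bases before the start, written 5′ to 3′ on the gene's strand with these letters in capitals (ATTGG is CCAAT on the other strand, GCGGGAAA is TTTCCCGC), are given for genes whose values are described further on. Mki67, Ccnb2 and Cdk1 show CCAAT and CHR letters, and Cdk1 also shows 1 E2F match. Cdc6 shows 1 E2F match alone, and Plk2 shows none of the 3.
Mki67 (chr7:135716380-135716629, minus strand): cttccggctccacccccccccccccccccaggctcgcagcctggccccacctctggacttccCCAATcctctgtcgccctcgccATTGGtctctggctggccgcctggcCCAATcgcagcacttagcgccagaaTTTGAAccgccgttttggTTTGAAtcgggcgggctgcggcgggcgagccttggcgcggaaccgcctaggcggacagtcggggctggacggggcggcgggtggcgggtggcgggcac
Ccnb2 (chr9:70421555-70421804, minus strand): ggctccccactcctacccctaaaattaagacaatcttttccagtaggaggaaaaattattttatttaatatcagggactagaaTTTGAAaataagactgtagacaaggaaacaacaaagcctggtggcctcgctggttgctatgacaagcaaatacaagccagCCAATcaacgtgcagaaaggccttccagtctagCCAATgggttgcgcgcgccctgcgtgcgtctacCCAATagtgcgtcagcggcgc
Cdk1 (chr10:69352913-69353162, minus strand): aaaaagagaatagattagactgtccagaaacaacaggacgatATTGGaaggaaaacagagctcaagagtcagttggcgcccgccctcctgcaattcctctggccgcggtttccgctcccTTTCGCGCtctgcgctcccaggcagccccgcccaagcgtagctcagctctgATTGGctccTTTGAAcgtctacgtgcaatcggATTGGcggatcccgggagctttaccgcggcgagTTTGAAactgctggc
Cdc6 (chr11:98907901-98908150, plus strand): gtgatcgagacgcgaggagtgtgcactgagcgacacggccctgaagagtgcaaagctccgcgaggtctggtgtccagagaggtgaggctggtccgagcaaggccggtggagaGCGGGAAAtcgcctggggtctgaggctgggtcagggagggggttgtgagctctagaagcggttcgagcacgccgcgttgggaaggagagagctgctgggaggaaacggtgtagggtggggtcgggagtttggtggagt
Plk2 (chr13:110394794-110395043, plus strand): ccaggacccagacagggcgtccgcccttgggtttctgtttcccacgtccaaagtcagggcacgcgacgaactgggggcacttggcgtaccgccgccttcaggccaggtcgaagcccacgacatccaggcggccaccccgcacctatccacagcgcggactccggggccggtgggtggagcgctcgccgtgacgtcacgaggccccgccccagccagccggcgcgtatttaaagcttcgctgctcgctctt

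The arrays had median intensities from 106.3 to 112.3. Array 2 of unrecombined Hex stood apart: its mean correlation with the other arrays was 0.869 against at least 0.978 for each of the others, and its values spread less (SD 1.6 on the log2 scale against 1.79 to 1.98). It was the lowest of the 40 arrays for 39 of the 66 cell cycle sets and the highest for 12. For 47 of the 66 it lay below the mean of the other 3 arrays of its group, against 48.7% of all sets, and by at least 1 on the log2 scale for 30. Calls of the comparisons that use it are therefore given with and without that array. The log2 ratio of the 3′ to the 5′ control set for β-actin, a measure of how complete the RNA and its labelling were, ran from 0.56 to 2.34 over the arrays and was 2.24 on array 2. The 8 ES cell markers (among them Pou5f1, Sox2 and Nanog) were all above the array median, with their mean between 10.56 and 10.89 in every group. Of other lineages 4 of 8 fibroblast, 3 of 7 primitive endoderm, 1 of 2 mesoderm and 1 of 4 neuroectoderm markers were above it; the group means of these lists ran from 6.51 to 6.64, 6.68 to 6.91, 7.03 to 7.27 and 6.44 to 6.67. The array's set for the endogenous Hex gene, Hhex (98408_at), had group means from 5.89 to 6.29, below the array median of 6.76, and the recombined and unrecombined Hex arrays overlapped (6.11 to 6.46 against 4.94 to 6.32); whether this set matches the inserted sequence is not known, so it gave no check of the labels.

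Most cell cycle sets read at or above the array median. Averaged without array 2, 50 of the 66 sets lay at or above the array median and 16 below it, with means from 3.8 to 11.65. Levels are log2 intensities and were not compared between sets, because each set binds its target with its own efficiency. The lowest and highest of the 11 group means of a set differed by a median of 0.419 log2 units, against 0.305 over all 12422 sets, and by less than 0.5 for 41 of the 66 (80.7% of all sets). Within groups the cell cycle sets also spread more, with a median SD of 0.19 against 0.142. In a bulk sample, fewer cells in a phase and less RNA per cell cannot be told apart.

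A moderated F test of any difference among the 11 groups (limma over all 12422 sets, Benjamini-Hochberg adjusted) called 0 of the 66 with all arrays, at a background of 5.17% of all sets. Without array 2 it called 6 of the 66 (9.09%), at a background of 12.9%: Plk2, Mki67, Ccnd2, Cdc6, Bub1 and E2f1. With array 2 left out and the ratio of β-actin entered as a covariate, it called 27 of the 66 (40.9%) against 23.9% of all sets.

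**Figure D1:**
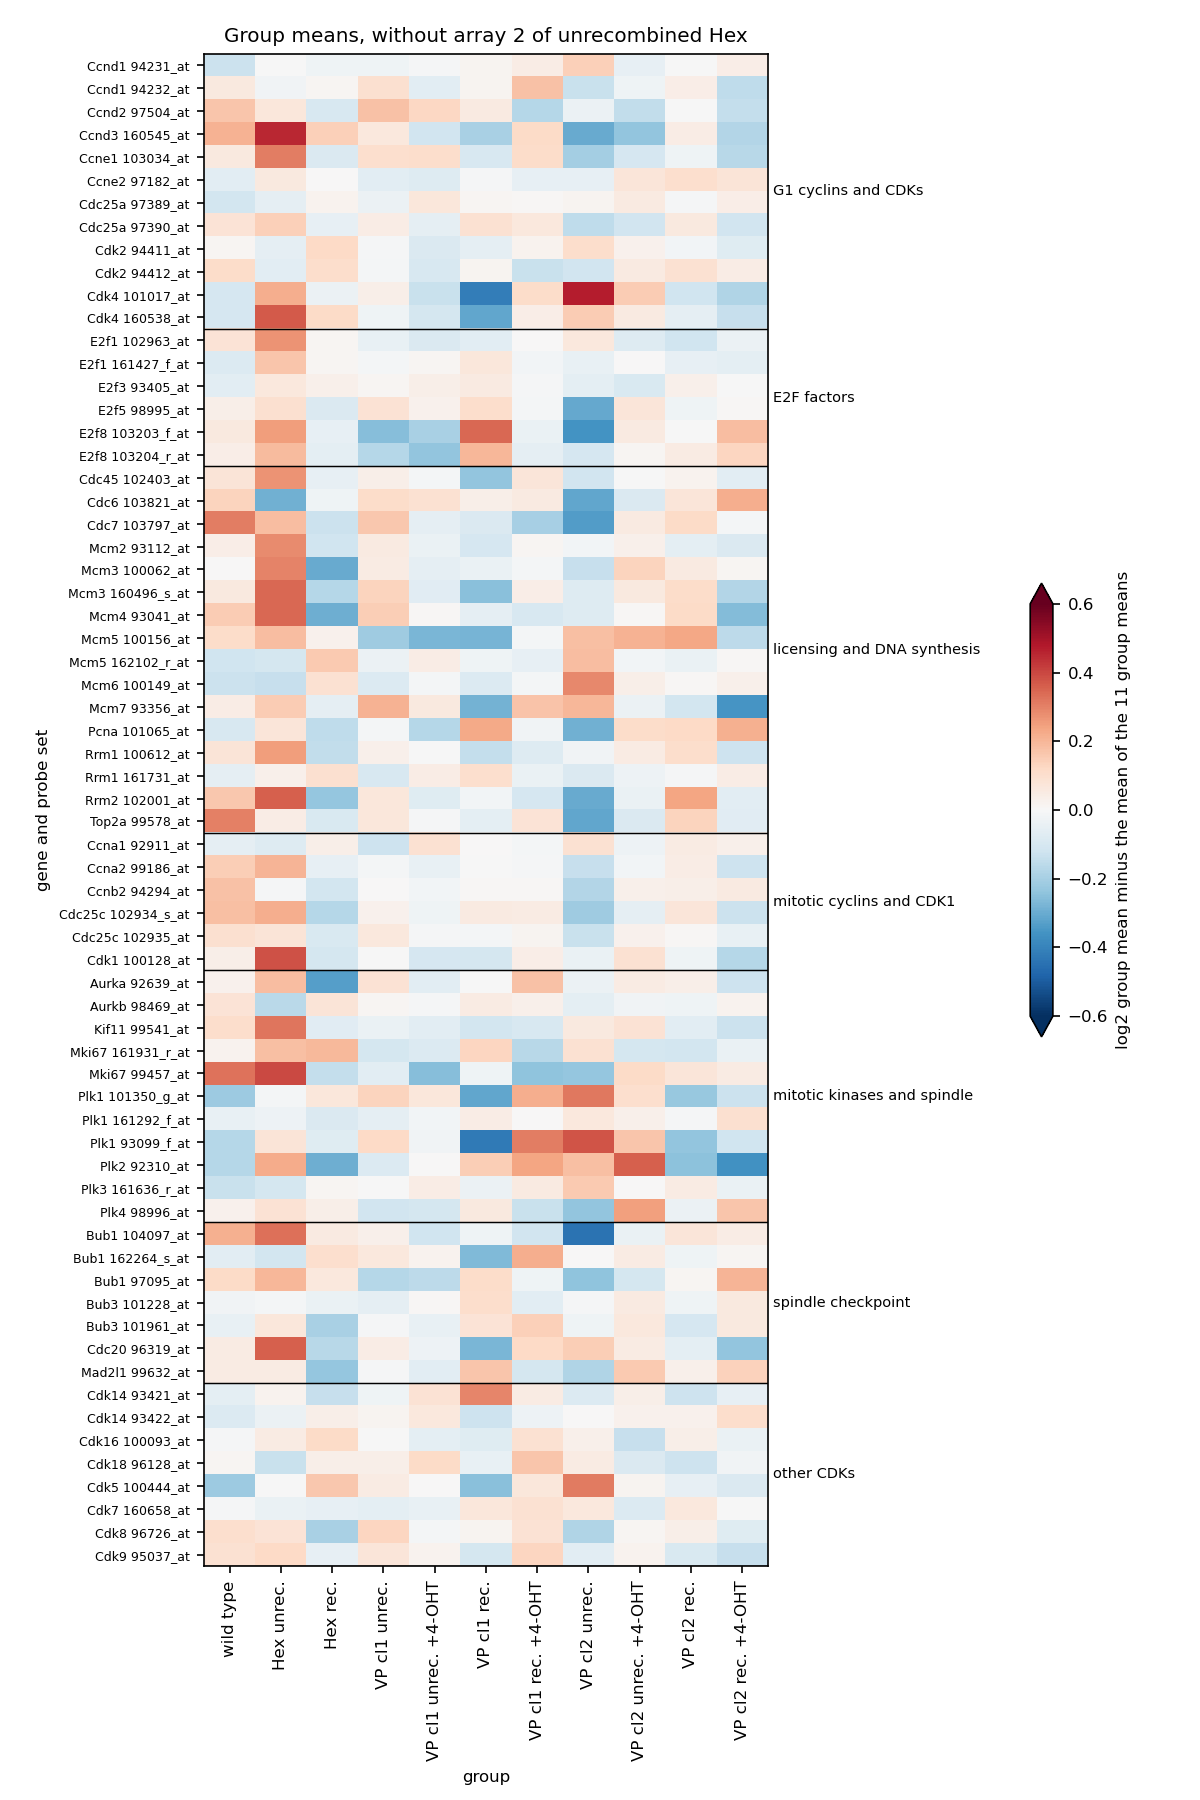
Colour shows each group's mean log2 intensity minus the mean of the 11 group means of that probe set, for the 66 cell cycle and mitosis sets in rows by role and the 11 groups in columns (VP stands for HexERTVP2, cl for clone, rec. and unrec. for recombined and unrecombined), without array 2 of unrecombined Hex. Unrecombined Hex held the highest group mean for 22 of the 66 sets (14% of all sets), and the group means of 41 of the 66 spanned less than 0.5 (80.7% of all sets).

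Plk2, a Polo-like kinase that acts in centriole duplication and is a known p53 target, had the largest F of the 66 sets in both fits (92310_at; F = 5.84, adjusted p = 0.00129 by limma without array 2; adjusted p = 0.0532 with all arrays). The 4 wild-type arrays read 8.69, 8.81, 9.04 and 8.74. The unrecombined Hex arrays read 9.23, 8.36, 9.31 and 9.10, where 8.36 is array 2, and the recombined ones read 8.63, 8.90, 8.47 and 8.78. Without array 2 every unrecombined Hex array thus lay above every recombined one. In HexERTVP2 clone 2 the unrecombined arrays read 8.93, 9.29 and 9.29 without 4-OHT and 9.11, 9.64 and 9.30 with it, all above the recombined arrays at 8.69, 8.88 and 8.66 without and 8.61, 8.37 and 8.90 with 4-OHT. Clone 1 did not show this order: its unrecombined arrays without 4-OHT ran from 8.78 to 9.08 and its recombined ones from 8.93 to 9.55. The recombined minus unrecombined difference without 4-OHT was 0.23 ± 0.15 (SE) in clone 1 and -0.43 ± 0.19 in clone 2; the difference between the clones was not tested. The group means of Plk2 ran from 8.63 ± 0.26 (SD, n = 3; recombined clone 2 with 4-OHT) to 9.35 ± 0.27 (n = 3; unrecombined clone 2 with 4-OHT).

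Mki67 encodes Ki-67, a protein of the surface of mitotic chromosomes that is used as a marker of dividing cells. Its set 99457_at read 8.39, 8.42, 8.22 and 8.53 in the wild type, and 8.52, 7.36 (array 2), 8.36 and 8.50 in unrecombined Hex. The recombined Hex arrays read 7.90, 7.90, 7.82 and 8.06, below every wild-type array and, array 2 aside, below every unrecombined one. The 5 unrecombined clone 1 arrays without 4-OHT ran from 7.69 to 8.26 (median 8.10), and the 3 of clone 2 read 7.86, 7.83 and 7.80. The lowest group mean was 7.81 ± 0.10 (SD, n = 3; unrecombined clone 1 with 4-OHT) and the highest 8.46 ± 0.09 (n = 3; unrecombined Hex without array 2). Without array 2 the F test gave an adjusted p of 0.00464.

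The other 4 sets called without array 2 follow. Ccnd2 (97504_at), a D-type cyclin, ran from 6.48 ± 0.18 (n = 4; recombined clone 1 with 4-OHT) to 6.82 ± 0.12 (SD, n = 5; unrecombined clone 1), with an adjusted p of 0.012 in limma's F test without array 2. Cdc6, which loads the MCM helicase at origins, ran from 9.23 ± 0.19 (n = 3; unrecombined clone 2) to 9.76 ± 0.14 (n = 3; recombined clone 2 with 4-OHT), with an adjusted p of 0.0214. Bub1 (104097_at), a checkpoint kinase of the kinetochore, ran from 8.34 ± 0.35 (n = 3; unrecombined clone 2) to 9.11 ± 0.06 (n = 3; unrecombined Hex), with an adjusted p of 0.0235. E2f1 (102963_at), an activating E2F, ran from 5.58 ± 0.10 (n = 3, recombined clone 2) to 5.97 ± 0.04 (n = 3, unrecombined Hex), with an adjusted p of 0.043. All group means of this set lay below the array median. The second E2f1 set, 161427_f_at, was not called in the same F test (adjusted p = 0.857). Among mitotic cyclins the largest F belonged to Ccnb2, cyclin B2 (94294_at; 10.48 ± 0.15 to 10.83 ± 0.08, adjusted p = 0.181), and among the other CDKs to Cdk14 (93421_at; 5.61 ± 0.16 to 6.04 ± 0.19, adjusted p = 0.142).

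**Figure D2:**
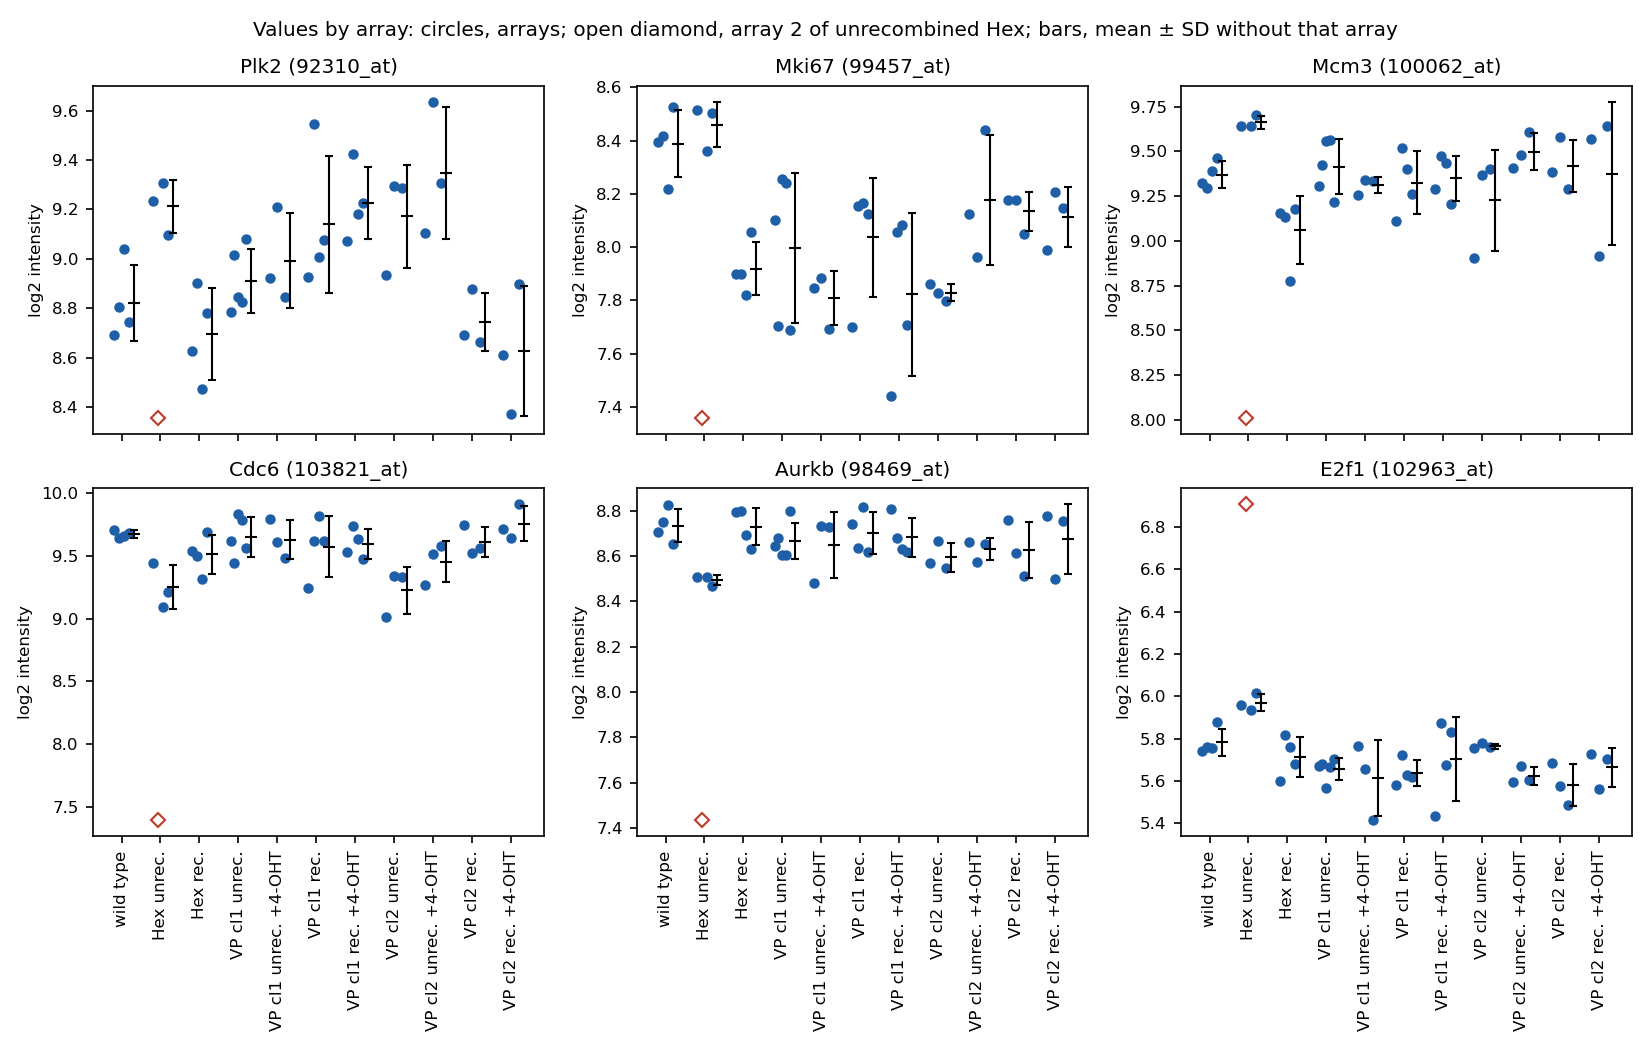
Log2 intensity (vertical axis) of 6 probe sets on the 40 arrays, by group (horizontal axis; VP stands for HexERTVP2, cl for clone). Circles are arrays, the open diamond is array 2 of unrecombined Hex, and bars give mean ± SD without that array; for Plk2, Mki67 and Mcm3 every unrecombined Hex array but array 2 (8.36, 7.36 and 8.01) lay above every recombined one.

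The comparison of recombined with unrecombined Hex gives how these genes differ between those cells. The labels name no separate clones for Hex, so an effect of the recombined allele and a difference between cell lines cannot be told apart. With all 8 arrays, 2 of the 66 sets passed (3.03%), at a background of 3.37% of all sets. The activating factor E2f1 (102963_at) was lower and Aurkb, the Aurora kinase of the chromosomal passenger complex, was higher in recombined cells. E2f1 read 5.96, 6.91 (array 2), 5.93 and 6.02 unrecombined and 5.60, 5.82, 5.76 and 5.68 recombined, a difference of -0.49 ± 0.13 (SE) with an adjusted p of 0.0235 in limma. The groups did not overlap, but array 2 was far above the rest, and without it the difference was -0.26 and no longer passed. Aurkb read 8.51, 7.43 (array 2), 8.51 and 8.47 unrecombined and 8.8, 8.8, 8.69 and 8.63 recombined, a difference of 0.50 ± 0.14 with an adjusted p of 0.0302 in limma. Again the groups did not overlap and array 2 was the extreme; without it the difference was 0.24 and did not pass.

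Without array 2 the called genes were others: 3 of the 66 sets fell in recombined Hex (4.55%) and 0 rose. Of all sets 6.26% passed, 3.91% lower and 2.35% higher. Mcm3, a subunit of the replicative helicase, fell by 0.60 ± 0.13 (SE; 100062_at, adjusted p = 0.00408 in limma); its arrays read 9.64, 9.64 and 9.70 unrecombined and 9.16, 9.13, 8.78 and 9.18 recombined, with no overlap. The second Mcm3 set, 160496_s_at, read 10.73, 10.71 and 10.55 against 9.87, 10.35, 9.87 and 10.49, a difference of -0.52 that did not pass. Mki67 (99457_at) fell by 0.54 ± 0.14 (adjusted p = 0.015 in limma) and Plk2 by 0.52 ± 0.14 (adjusted p = 0.0216), on the array values given above. With all arrays the differences were -0.19 ± 0.22 for Mcm3, -0.27 ± 0.18 for Mki67 and -0.30 ± 0.16 for Plk2. None passed (adjusted p = 0.694, 0.466 and 0.36 in limma), so in this fit each of these calls rests on leaving out array 2. Plk2 did pass with all arrays once the β-actin ratio was a covariate (-0.45 ± 0.09, adjusted p = 0.00131 in limma). When each of the 7 remaining arrays was also left out in turn, Mcm3 passed every time (highest adjusted p = 0.0255), Mki67 in 5 of 7 fits (highest adjusted p = 0.077, lost without array 1 or 4 of unrecombined Hex) and Plk2 in 3 of 7 (highest adjusted p = 0.112, lost without array 1 or 3 of either group).

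As a set of values, the 66 differences had a median of -0.004 with all arrays (0.009 over all sets) and of -0.165 without array 2 (0.043 over all sets). Without it 48 of the 66 were below 0 (72.7%, against 38.8% of all sets). By role, the median was -0.271 for licensing and DNA synthesis (12 of 16 below 0), -0.26 for the spindle checkpoint (6 of 7), -0.216 for E2F factors (6 of 6), -0.211 for mitotic cyclins and CDK1 (5 of 6), -0.111 for G1 cyclins and CDKs (8 of 12), -0.054 for mitotic kinases and spindle (7 of 11) and 0.029 for the other CDKs (4 of 8). With all arrays the medians were -0.036 for licensing and DNA synthesis (10 of 16 below 0), 0.042 for the spindle checkpoint (3 of 7), -0.226 for E2F factors (4 of 6), 0.004 for mitotic cyclins and CDK1 (2 of 6), 0.014 for G1 cyclins and CDKs (6 of 12), -0.097 for mitotic kinases and spindle (6 of 11) and 0.039 for the other CDKs (3 of 8). Array 2 thus turned the sign of the median for the checkpoint, the mitotic cyclins and the G1 group. These counts describe the sets and were not tested as a list.

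**Figure D3:**
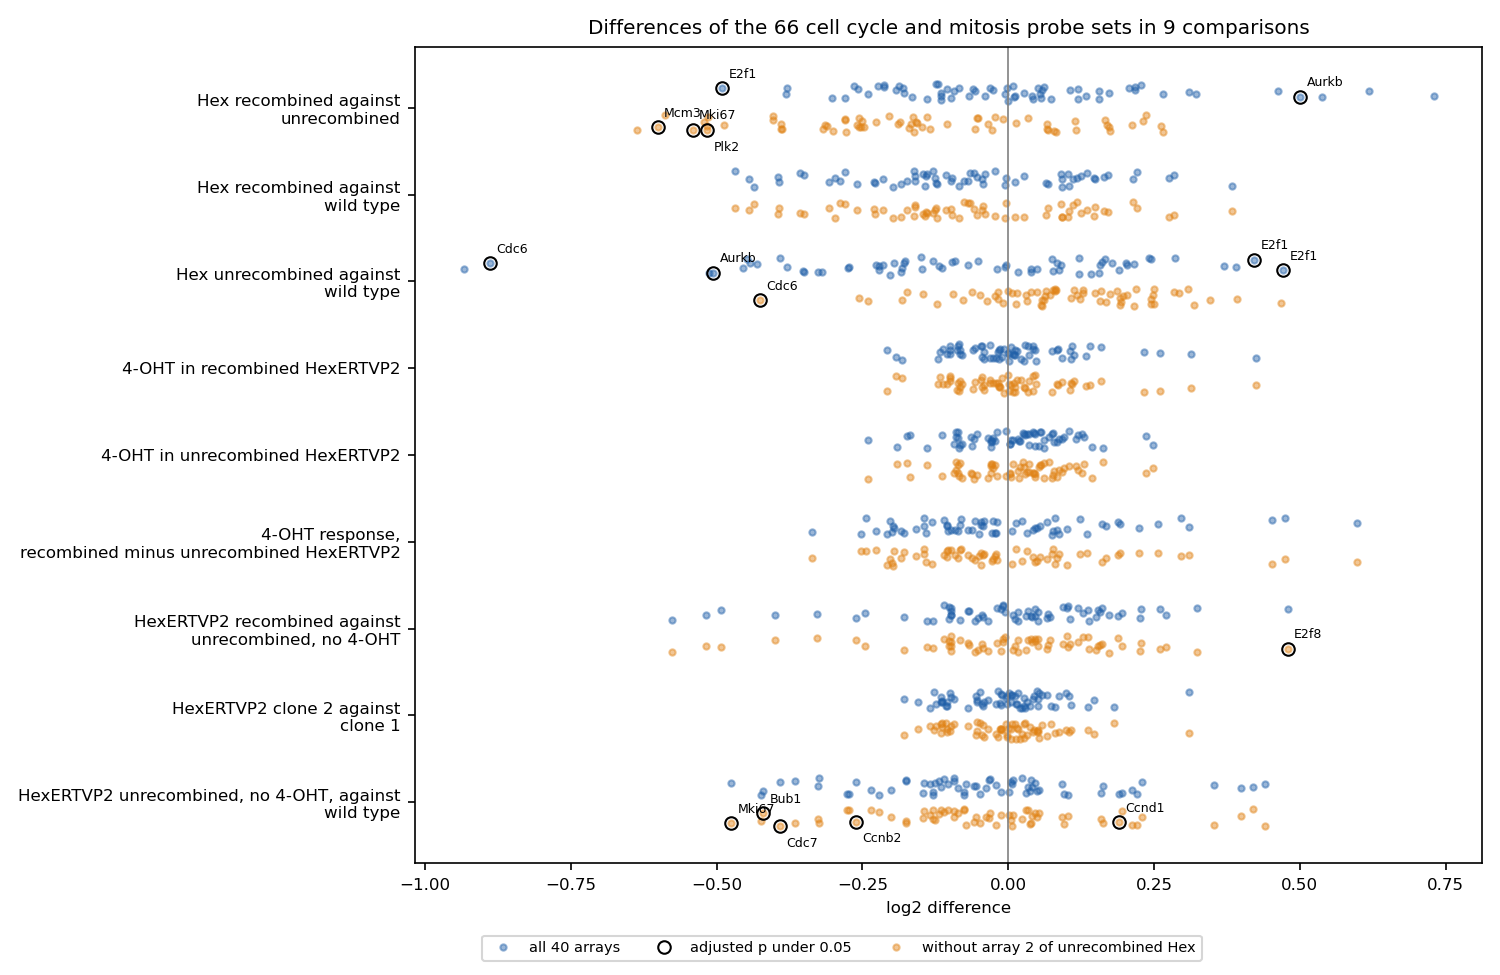
Log2 differences (horizontal axis) of the 66 cell cycle and mitosis probe sets in 9 comparisons (vertical axis), with all 40 arrays (blue) and without array 2 of unrecombined Hex (orange); each point is a set and black rings mark an adjusted p under 0.05. The 4-OHT comparisons lie around 0 with no ring, and the Hex comparison shifts to the left when array 2 is left out.

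The β-actin ratio was 0.34 lower in recombined than in unrecombined Hex with all arrays and 0.09 lower without array 2. With array 2 left out and this ratio entered as a covariate, 17 of the 66 sets passed (25.8%, at a background of 13.2% of all sets). Of these, 16 sets of 15 genes were lower in recombined Hex (24.2%, against 7.81% of all sets) and 1, Aurkb, was higher (against 5.38% of all sets; 0.23 ± 0.07, adjusted p = 0.0346 in limma). With the covariate and all arrays 4 of the 66 passed (5.28% of all sets): Plk2, Kif11 and E2f1 were lower and Aurkb was higher. Without array 2 the lower ones included the helicase and synthesis genes Mcm2, Mcm3, Mcm4, Cdc45, Rrm1 and Rrm2. Rrm1 and Rrm2 encode the subunits of ribonucleotide reductase. Also lower were the S phase regulators Ccne1 and E2f1, the mitotic genes Cdk1, Aurka, Kif11, Cdc20, Bub3 and Mki67, and Plk2. Aurka (0.07), Bub3 (101961_at, 0.17) and Cdk1 (0.01) were not lower with all arrays and no covariate, so their direction rests on leaving out array 2. Plk2 was called with the smallest adjusted p (-0.55 ± 0.08, adjusted p = 5.4e-06 in limma). Mcm4 differed most (93041_at): it read 10.30, 10.30 and 10.29 on 3 unrecombined arrays (8.64 on array 2) and 9.36, 9.94, 9.50 and 9.84 recombined, with no overlap once array 2 was set aside, and its difference was -0.66 ± 0.18 with the covariate (adjusted p = 0.0109), -0.64 without it and -0.22 with all arrays and no covariate. Cdc20, the activator of the anaphase-promoting complex, read 11.71, 11.63 and 11.43 (9.77 on array 2) against 10.92, 11.55, 10.46 and 11.33; the groups overlapped, and the covariate fit gave -0.59 ± 0.12 (adjusted p = 0.000579), against -0.52 without array 2 alone and -0.07 with all arrays.

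Recombined Hex was also set against the wild type, with which it shares no insertion; the comparison reuses the recombined arrays. It called 0 of the 66 sets with all arrays (background 0.266%), and 4 of the 66 had an unadjusted p under 0.05, against 8.24% of all sets. Without array 2 it called 0 (background 1.37%), with a lowest adjusted p of 0.0597 in limma. There 11 of the 66 had an unadjusted p under 0.05, against 17.8% of all sets. Differences ran from -0.47 for Mki67 to 0.38 for Cdk5, a CDK known from neurons. With the β-actin covariate and without array 2, 4 of the 66 passed (background 4.93%): Mki67 (-0.46), Aurka (-0.38) and Ccnb2 (-0.30) were lower and Cdk5 (0.36) was higher in recombined Hex, with adjusted p values of 0.0302, 0.0161, 0.0132 and 0.0363 in limma.

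Unrecombined Hex against the wild type shares its control arrays with the comparison just given and its Hex arrays with the first. With all arrays 4 of the 66 sets passed (6.06%, background 4.82%). Cdc6 read 9.44, 7.39 (array 2), 9.10 and 9.21 against 9.71, 9.65, 9.66 and 9.69 in the wild type, with no overlap; it was lower by -0.89 ± 0.23 (SE, adjusted p = 0.0168 in limma), and without array 2 by -0.42 ± 0.12 (adjusted p = 0.0343). Without array 2 it was the single call of the 66 (background 3.63%), and it was lost when any wild-type array or array 3 or 4 of unrecombined Hex was left out as well (highest adjusted p = 0.246). Aurkb (-0.51, adjusted p = 0.0222) and both E2f1 sets (0.42 and 0.47, adjusted p = 0.0477 and 0.0445) passed with all arrays and not without array 2, where their differences were -0.24, 0.19 and 0.25. When the β-actin ratio was added to the fit without array 2, the calls were Cdk4, the D-cyclin kinase (160538_at, 0.49), and Plk2 (0.40), both higher, and Aurkb (-0.24) and Cdc6 (-0.42), both lower, 4 of the 66 at a background of 7.27%.

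In HexERTVP2 cells the comparison of interest is the response to 4-OHT. In recombined cells, averaged over the clones, 0 of the 66 sets passed with all arrays, at a background of 0.0322% of all sets, and 0 of the 66 had an unadjusted p under 0.05, against 191 of all sets (1.54%). Differences ran from -0.21 for Mcm4 to 0.42 for Plk1 (93099_f_at), the Polo-like kinase of mitotic entry. Plk1 read 8.81, 9.68, 7.71 and 8.31 without and 9.01, 9.81, 8.98 and 9.64 with 4-OHT in clone 1, and 8.72, 9.40 and 8.32 without and 8.79, 8.51 and 9.49 with it in clone 2, so that the groups overlapped in both clones. The differences were 0.73 ± 0.39 (SE) in clone 1 and 0.12 ± 0.45 in clone 2. The 95% confidence interval of the difference lay within 1 log2 unit of 0 for 65 of the 66 sets (98.5%, against 99.7% of all sets). It lay within 0.5 for 53 (80.3%, against 90.6% of all sets). In unrecombined cells 0 of the 66 sets passed at a background of 0%, with 0 unadjusted p values under 0.05 (169 of all sets). The differences ran from -0.24 for Cdk4 to 0.25 for Plk4, a kinase of centriole duplication. Their intervals lay within 1 for 66 of the 66 sets (99.9% of all sets) and within 0.5 for 55 (83.3%, against 89.4% of all sets). The difference between these responses, recombined minus unrecombined, called 0 of the 66 at a background of 0.0161%. Of the 66, 0 had an unadjusted p under 0.05, against 2.59% of all sets. Values ran from -0.34 for E2f8 to 0.60 for Plk1. Without array 2, whose group is in none of these comparisons but adds to the shared spread, the counts were again 0, 0 and 0. The backgrounds were 0.145%, 0% and 0.0644%. Unadjusted p values under 0.05 numbered 2, 2 and 3 of the 66, against 3.64%, 4.36% and 6.41% of all sets. Adding the β-actin ratio to that fit also gave 0, 0 and 0 calls, at backgrounds of 0.282%, 0% and 0.0805%. Unadjusted p values under 0.05 then numbered 3, 6 and 3 of the 66, against 5.48%, 6.74% and 7.56% of all sets.

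Recombination of HexERTVP2 without 4-OHT called 0 of the 66 sets (background 0.467%), and 6 had an unadjusted p under 0.05, against 10.7% of all sets. E2f8 (103203_f_at), an atypical E2F that represses E2F targets, read 8.28, 7.57, 8.19, 8.11 and 7.52 unrecombined and 8.83, 8.15, 8.75 and 8.41 recombined in clone 1, and 8.28, 7.59 and 7.63 against 8.21, 8.17 and 8.19 in clone 2. The groups overlapped in both clones. Its difference of 0.48 ± 0.13 (SE) passed without array 2 (adjusted p = 0.0397 in limma, 1 of the 66, background 3.38%) and was lost in 10 of 15 fits that also left out 1 array of these groups (highest adjusted p = 0.15). Its second set, 103204_r_at, did not pass. The β-actin ratio was 0.44 higher in recombined than in unrecombined cells. With it as a covariate and without array 2, 0 of the 66 passed (background 3.45%), and 19 had an unadjusted p under 0.05, against 20.7% of all sets. Plk1 (93099_f_at) had the lowest difference, -0.58, and did not pass.

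Clone 2 against clone 1, averaged over the states of a clone, called 0 of the 66 sets (background 1.22%). An unadjusted p under 0.05 was found for 2 of the 66, against 7.32% of all sets. Differences ran from -0.18 for Ccne1, cyclin E1, to 0.31 for the helicase subunit Mcm5 (100156_at). Without array 2 this comparison also called 0 (background 3.25%), and 10 had an unadjusted p under 0.05, against 12.5% of all sets. With the β-actin covariate and array 2 left out, 4 of the 66 passed (background 6.13%): Mcm5 was higher in clone 2 (0.31 ± 0.08, adjusted p = 0.00789 in limma) and Ccne1, Cdk14 and Cdk18 were lower by 0.12 to 0.18 in size. The second Mcm5 set (162102_r_at) did not pass.

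Unrecombined HexERTVP2 cells without 4-OHT were compared with the wild type, whose arrays also serve the Hex comparisons. With all arrays 0 of the 66 sets passed (background 1.46%), and 9 had an unadjusted p under 0.05, against 14.9% of all sets. Without array 2, 5 of the 66 passed (7.58%, at a background of 8.13%). Mki67 fell by 0.48 ± 0.11 (SE; adjusted p = 0.00857 in limma), and its highest HexERTVP2 array, 8.26, overlapped the lowest wild-type array at 8.22. Bub1 (104097_at) read 9.05, 9.02, 8.92 and 8.98 in the wild type, from 8.66 to 8.94 in clone 1 and 7.95, 8.61 and 8.45 in clone 2, and fell by 0.42 ± 0.11 (adjusted p = 0.0202). Ccnb2 read 10.77, 10.90, 10.88 and 10.76 in the wild type, above all 8 HexERTVP2 arrays, which ran from 10.31 to 10.74; it fell by 0.26 ± 0.07 (adjusted p = 0.0182). Cdc7, the kinase that fires origins, fell by 0.39 ± 0.12 (adjusted p = 0.0466): the wild-type arrays read 7.38, 7.20, 7.27 and 7.39, clone 1 ran from 7.01 to 7.44 and clone 2 read 6.42, 6.79 and 6.81. Ccnd1, cyclin D1, rose by 0.19 ± 0.05 (94231_at, adjusted p = 0.0242 in limma). Its other set, 94232_at, gave no call. The other sets of Mki67 (161931_r_at) and Bub1 (162264_s_at and 97095_at) gave no call either. The mean of 161931_r_at was below the wild type in clone 1 and above it in clone 2. In each clone the mean of 162264_s_at was above the wild type and that of 97095_at below it. When 1 more array of these groups was left out, Mki67 still passed in 11 of 12 fits, Ccnb2 in 10, Ccnd1 in 9, Bub1 in 8 and Cdc7 in 2.

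The β-actin ratio was 0.26 lower in the unrecombined HexERTVP2 cells than in the wild type. With it as a covariate and without array 2, 14 of the 66 sets passed (21.2%, against 20% of all sets), 10 lower (9.56% of all sets) and 4 higher (10.4%). The lower ones were those of Mki67, Bub1, Ccnb2 and Cdc7 with Ccna2, Ccnd3, Cdc45, Cdk2, Cdk9 and Top2a, the topoisomerase that separates sister DNA, which differed most (-0.53 ± 0.16, adjusted p = 0.0203 in limma). The higher ones were Ccnd1, Cdk5, Mcm5 (162102_r_at) and Mcm6, the last of which lay below the array median. The other Mcm5 set, 100156_at, did not pass. It read 11.37, 11.56, 11.89 and 11.64 in the wild type, from 11.16 to 11.52 in clone 1 and 11.27, 11.83 and 11.95 in clone 2. Without the covariate its mean was below the wild type in clone 1 and above it in clone 2. Averaged over the clones it was lower, opposite to 162102_r_at.

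Within groups many cell cycle sets moved against the β-actin ratio. Taking each array's deviation from its group mean over 39 arrays (array 2 left out), the correlation of a set with the ratio had a median of -0.417 for the 66 sets and of 0.212 for all 12422. It was -0.7 or lower for 23 of the 66 (12% of all sets) and 0.7 or higher for 7 (8.37%). The lowest were Plk1 (101350_g_at, -0.934) and Mcm7 (-0.929), and the highest was E2f8 (103203_f_at, 0.85). These are descriptions over arrays that share their groups and processing. What part of the differences between groups follows the ratio beyond the covariate fits given above was not tested.

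**Figure D4:**
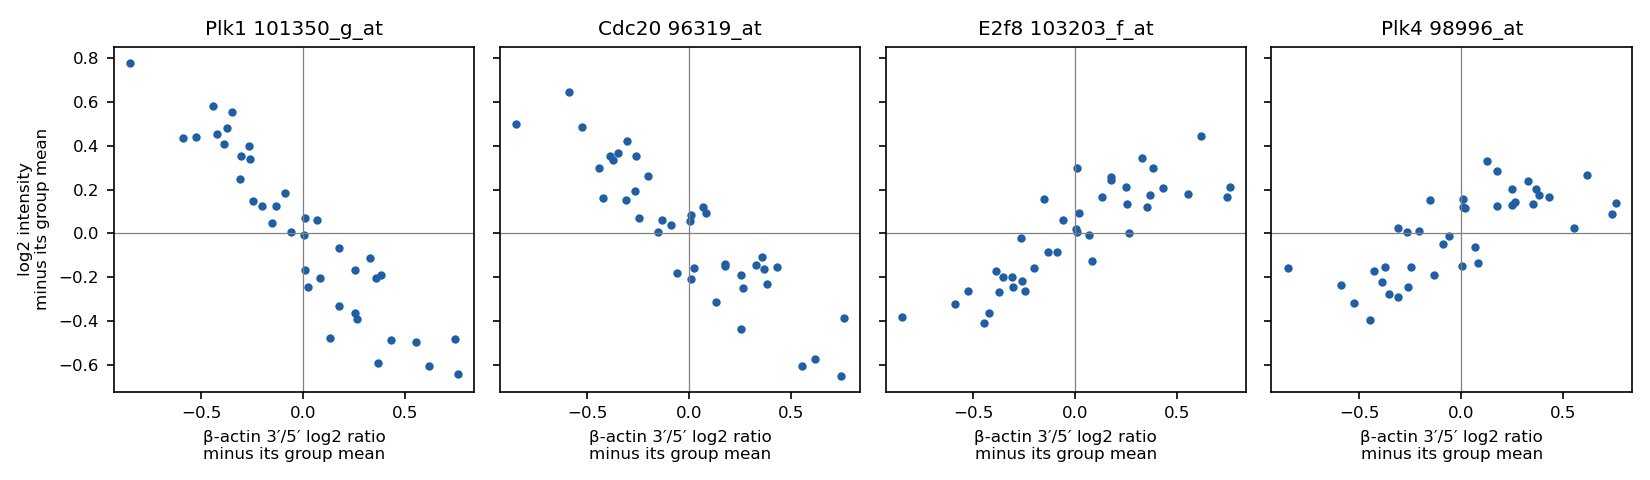
Deviation of log2 intensity from the group mean (vertical axis) against the deviation of the β-actin 3′/5′ log2 ratio (horizontal axis), for Plk1, Cdc20, E2f8 and Plk4; each of the 39 points is an array, without array 2 of unrecombined Hex. Plk1 and Cdc20 were lower on arrays with a high ratio, E2f8 and Plk4 higher.

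Probe sets of the same gene often disagreed. The 15 genes with more than 1 set gave 19 pairs, whose within-group deviations over the 39 arrays correlated at 0.7 or more in 4 pairs and below 0 in 10. The 4 pairs were those of Plk1 (101350_g_at with 93099_f_at, 0.962), E2f8 (0.867), Cdk4 (0.782) and Cdc25c (0.774). In the Hex comparison without array 2, 9 of the 19 pairs had the same sign. Both Mcm3 sets were lower (-0.60 and -0.52), whereas Mki67 gave -0.54 with 99457_at and 0.01 with 161931_r_at, whose mean of 6.52 lay below the array median. Bub1 gave -0.28 with 104097_at, 0.21 with 162264_s_at and -0.13 with 97095_at. Rrm1 gave -0.40 with 100612_at and 0.07 with 161731_at, and Bub3 gave -0.26 with 101961_at and -0.03 with 101228_at. Apart from 104097_at, 100612_at and 101961_at, these sets of Bub1, Rrm1 and Bub3 had means below the array median.

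Genes of the same pathways outside the rule came from lists of CDK inhibitors and the RB family, origins and forks, nucleotide synthesis, mitosis, the DNA damage checkpoint, p53 targets and other cyclins, 1 set per gene. Cdkn1c, which encodes the CDK inhibitor p57 and is imprinted, had the largest difference. It read 8.69 to 9.08 in the wild type, 8.84, 7.29 (array 2), 8.83 and 8.8 in unrecombined Hex, and 7.59, 6.96, 6.90 and 6.85 in recombined Hex. Every recombined array lay below every other one except array 2. It fell by 1.37 ± 0.27 (SE) against unrecombined Hex with all arrays (adjusted p = 0.00189 in limma), it fell by 1.75 ± 0.23 without array 2, and it fell by 1.79 ± 0.27 against the wild type (adjusted p = 0.000163). Of the other 11 measured CDK inhibitor and RB genes none passed with all arrays in the Hex comparison. Among the other lists 1 gene passed there, the checkpoint kinase Atm (-0.30, adjusted p = 0.0384). Without array 2, 4 of 31 origin and fork genes fell in recombined Hex and 0 rose, led by Gmnn, geminin (-0.55), and Pola1 (-0.51); of all sets 3.91% were lower and 2.35% higher in this comparison, against which the counts of this and the next lists are to be read. Of 39 mitosis genes 2 fell, Stmn1 (-0.84), a regulator of microtubules, and Kif22 (-0.29). Of 12 DNA damage checkpoint genes 2 fell (Trp53bp1, -0.60, and Atm), of 10 p53 targets 2 (Mdm2, -0.60, and Zmat3, -0.43), of 7 nucleotide synthesis genes 1 (Dtymk, -0.31), of 12 CDK inhibitor and RB genes 2 (Cdkn1c and Rb1, -0.55), and of 7 other cyclins 0; none of these genes rose.

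In unrecombined HexERTVP2 cells against the wild type without array 2, 4 of the 39 mitosis genes fell (Cdca3, -0.40, and Nusap1, -0.35, most), as did 3 of 12 DNA damage checkpoint genes (Brca1, -0.44, and Brca2, -0.27, among them) and 1 of 31 origin and fork genes (Pole2, -0.36), while 3 of 12 CDK inhibitor and RB genes rose (Cdkn1c, 0.60, Cdkn1a, 0.34, and Cdkn2b, 0.22). Of all sets 5.26% were lower and 2.87% higher there, so that the single origin and fork gene lies below the share of all sets. Averaged over the clones, Cdkn1c was also lower in recombined than in unrecombined HexERTVP2 cells without 4-OHT. The difference was -0.69 ± 0.16 without array 2 (adjusted p = 0.0114 in limma) and did not pass with all arrays. In clone 1 the mean was 9.611 unrecombined (9.315 to 10.01) and 8.474 recombined (8.178 to 8.836), with no overlap. In clone 2 the means were 9.309 (9.154 to 9.602) and 9.067 (8.798 to 9.302), and the arrays overlapped. The difference between the clones was not tested. In the 4-OHT comparisons of recombined and of unrecombined cells none of the listed genes passed, with all arrays or without array 2.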

How the data were processed

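Biotin-labelled total RNA was hybridised to 1-channel Affymetrix MG-U74Av2 arrays. The deposited values are linear intensities that the authors summarised per probe set with RMA, per the submitters' processing notes; no version is given, and which arrays were normalised together is not given in the sources used here. RMA equalises the arrays' distributions, so a change shared by most genes would not show. Here the deposited intensities were converted to log2 and tested without a filter on low values. Of 12488 probe sets, 66 control sets were left out and 12422 tested. Gene symbols came from the platform annotation. In limma 3.58.1 (R 4.3.3) group means were fitted over the 40 grouped arrays together, followed by eBayes and Benjamini-Hochberg adjustment over all 12422 sets, with a threshold of 0.05. The scripts were tested on simulated data.

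The members, gene lists and tests were chosen with earlier results of these data known. Named with values were members called in a comparison (up to 10 in each direction) and up to 2 with the largest change where fewer than 2 were called. Up to 4 per role by F were added, with some but not all other sets of a named gene whose sign or call differed. Of each gene list up to 2 called genes were named by size, and further ones were chosen after their values were seen. The alternatives were other scalings, a filter on low means, array weights, limma's trend and robust moderation, and fits of the compared groups alone. Further ones were the β-actin ratio as a covariate, a replicate block, another threshold and leaving out arrays. Leaving out a second array beside array 2 of unrecombined Hex was chosen after seeing the data. Replicate numbers were checked for pairing: over 39 arrays, the deviations of same-numbered arrays had mean correlations of 0.306, 0.106, -0.026 and 0.123 for numbers 1 to 4, with single pairs below 0 for each number, so the numbers were not taken to pair arrays. The 4 arrays whose title words and code contradict each other entered no comparison. Depth does not apply to arrays; their number limits the precision.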

Additional observations from a re-analysis of the deposited data

Results flagged for a closer look

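In groups of 4 or 5 arrays, 16 of 72 groups of values of the called members held an array whose gap to the nearest other array was large for the range of its group. For a single group of unselected values chance gives this in about 1 in 20. The sets here were chosen by calls made with or without array 2 and all use the same arrays. That share is therefore no reference for the 16. Array 2 of unrecombined Hex accounted for 9 of the 16. It read 6.91 for E2f1 (102963_at), where the other 3 arrays read 5.93 to 6.02, and 8.23 for the second E2f1 set (161427_f_at), against 7.33 to 7.36. For all other sets it was the low array. It read 7.43 for Aurkb (others 8.47 to 8.51), 8.01 for Mcm3 (9.64 to 9.70), 7.36 for Mki67 (8.36 to 8.52) and 7.39 for Cdc6 (9.10 to 9.44). It also read 5.89 for Cdc7 (7.18 to 7.20), 7.12 for Bub1 (9.06 to 9.18) and 9.60 for Ccnb2 (10.61 to 10.66).

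Array 1 of recombined HexERTVP2 clone 1 without 4-OHT was low for 3 sets: Mki67 read 7.70 (others 8.13 to 8.17), Cdc7 read 6.57 (7.0 to 7.08) and Bub1 read 8.38 (8.85 to 8.91). Mcm3 read 8.78 on array 3 of recombined Hex, against 9.13 to 9.18. The remaining 3 concerned E2f1: 102963_at read 5.88 on array 4 of the wild type (others 5.74 to 5.76) and 5.57 on array 3 of unrecombined clone 1 (5.67 to 5.70), and 161427_f_at read 7.27 on array 4 of unrecombined clone 1 (7.11 to 7.15).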

How the results depend on the processing

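The counts of the 66 sets called under each alternative are given with the count by the chosen fit first. With the β-actin covariate and all arrays, 9.54% of all sets passed among the 11 groups and 6.94% in unrecombined Hex against the wild type. For alternatives other than the covariate fits, the share of all sets called is not given here. Those counts, among them the ones with array weights, therefore cannot be read as particular to the 66 sets. Any difference among the 11 groups gave 0, and 1 after centring the arrays on their medians, 2 after quantile normalisation, 1 among sets with a mean of at least 6, 30 with array weights, 2 with the β-actin covariate, 27 with that covariate and array 2 of unrecombined Hex left out, and 2 at a threshold of 0.1. Recombined against unrecombined Hex gave 2, and 1, 5, 1, 15, 4, 17 and 4 in that order, and 0 with only the compared groups fitted. Recombined Hex against the wild type gave 0, 1 with array weights and 4 with covariate and without array 2. Unrecombined Hex against the wild type gave 4, 12 with array weights, 0 with only the compared groups and 7 with the covariate. Recombined against unrecombined HexERTVP2 gave 0, and 2 with array weights. The clones gave 0, 3 with array weights and 4 with covariate and without array 2. Unrecombined HexERTVP2 against the wild type gave 0, 7 with array weights, 4 with only the compared groups and 14 with covariate and without array 2. The 3 comparisons of 4-OHT gave 0 under every alternative run. The cause of these shifts was not tested.

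Leaving out arrays, 1 at a time or with array 2 as a second one (the latter chosen after seeing the data), gave 0 to 6 for the 11 groups, 0 to 5 for recombined against unrecombined Hex, 0 to 8 for unrecombined Hex against the wild type, 0 to 5 for recombination of HexERTVP2, and 0 to 6 for unrecombined HexERTVP2 against the wild type. For the other 5 comparisons, and for the F test, arrays were left out 1 at a time only; those 5 comparisons gave 0. With all other arrays kept, E2f1 in recombined against unrecombined Hex was lost without array 2 of unrecombined Hex or array 1 or 4 of recombined Hex, and Aurkb without array 2 of unrecombined Hex or array 1, 2 or 3 of recombined Hex. None of the 15 changes recomputed under every alternative reversed, but Aurka, Bub3 (101961_at) and Cdk1 in recombined against unrecombined Hex went from 0.07, 0.17 and 0.01 with all arrays to -0.52, -0.26 and -0.49 without array 2. Centring the arrays ended the Aurkb call (0.45, adjusted p = 0.0629 in limma) and moved the share of higher calls among all sets in that comparison from 76.8% to 57.3%.

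The replicate block, for numbers that were not taken to pair arrays (12 of 39 arrays were closest to their own number), gave 3 calls among the 11 groups and 1 for recombination of HexERTVP2, which was E2f8 (0.48, adjusted p = 0.0302 in limma). It ended the call of E2f1 161427_f_at in unrecombined Hex against the wild type (adjusted p = 0.0566 in limma). The share of all sets called with the block is not given here either.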

Other observations

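The 4 arrays whose title words and code name different groups were read for the same sets. The array with title word clone 2 and code clone 1, unrecombined with 4-OHT, read 8.59 for Plk2, 8.24 for Mki67 and 9.71 for Cdc6. The unrecombined clone 2 array whose words and code differ on 4-OHT read 9.45, 8.08 and 9.39. The array with words for recombined clone 1 with 4-OHT and code for recombined clone 2 without it read 8.58, 8.29 and 9.73. The recombined array with 4-OHT whose words name clone 1 and whose code names clone 2 read 8.62, 8.28 and 9.77. Over these 4 arrays Mcm3 (100062_at) ran from 9.28 to 9.49 and Aurkb from 8.59 to 8.70.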
